A study of Mus musculus with 6 samples.

Results

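The genes examined here were the enzymes and regulators of glycolysis and the pentose phosphate pathway, and the question was whether their RNA levels differed when Brca2, a gene of homologous recombination repair, was knocked down in mouse pancreatic cancer cells. The set was a list of 39 gene symbols, matched to the count table by name, and 36 of them were among its 10616 genes. Pfkp, Eno2 and Ldhb were not analysed here. The cells were KPC cells, a line from mouse pancreatic ductal adenocarcinoma. They were infected with a lentiviral pLKO.1 vector that expressed either a hairpin targeting Brca2 (3 libraries, called shBrca2) or a non-targeting hairpin (3 libraries, called shControl). All cells were selected with puromycin and grown in plastic dishes in serum-containing medium, and 10000 living cells, negative for propidium iodide, were sorted for each library. RNA was captured by its poly(A) tail and sequenced from the 3′ end, so a count stood for a transcript end and did not scale with transcript length. Each vector was used in 1 cell line, whether a line was 1 clone is not stated in the sources used here, and nothing in the labels says that the 3 libraries of a group came from separate cultures, so the tests measure the spread between these libraries, which may be technical.

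Glycolysis splits glucose into pyruvate in the cytosol: hexokinase and phosphofructokinase spend ATP, aldolase and triose phosphate isomerase yield the triose phosphates, and the enzymes from Gapdh to pyruvate kinase return ATP and NADH. Pyruvate is then reduced to lactate by lactate dehydrogenase or enters the mitochondrion through pyruvate dehydrogenase, which the Pdk kinases switch off. The pentose phosphate pathway leaves glycolysis at glucose 6-phosphate, its oxidative branch making NADPH and its non-oxidative branch rearranging sugars towards ribose, and many of these genes are targets of the hypoxia factor HIF1.

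The libraries held 1519340 to 2452467 counts each and detected between 10532 and 10593 genes. Brca2 itself had 10, 11 and 14 raw counts in shBrca2 against 33, 52 and 33 in shControl. It was lower in every shBrca2 library, with a log2 fold change of -1.61 ± 0.44 (SE, n = 3 against 3; DESeq2 adjusted p = 0.029), and that call was lost when shBrca2 replicate 2, shBrca2 replicate 3 or shControl replicate 2 was left out (adjusted p = 0.152, 0.233 and 0.371 in DESeq2). Of the 9 ductal epithelial markers checked, 8 were in the table and together took 0.818% to 0.933% of counts, although Epcam was low. Fibroblast, immune, endothelial and acinar lists had 2 of 9, 1 of 7, 0 of 4 and 1 of 6 markers in the table, none of the lists taking more than 0.0020% of any library. Each library detected nearly all of the 10616 genes in the table, and a marker absent from it has no count here. On the first principal component, which held 41.1% of the variance, shControl replicate 3 stood farthest from the rest (0.74, against 0.26 for the next library). The component did not separate the groups, since shBrca2 replicate 2 (0.02) lay above shControl replicate 1 (-0.18). For Gpi1 and Ldha, log2 fold changes are given below with and without shControl replicate 3. Pgk1 and Bnip3 changed sign without that library, from 0.22 to -0.07 and from -0.04 to 0.15.

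The pathway was measured mainly through a few abundant transcripts. Pkm, Ldha, Tpi1, Aldoa and Taldo1 were the only members with a mean normalized count over 1000, and ranked 36, 49, 105, 108 and 171 among the 10616 genes. These 5 genes together held 72.8% to 77.2% of all member counts in a library. At the other end, 7 members had a mean normalized count below 30, the lowest being Aldoc at 4.77, Pdk2 at 4.95 and Tkt at 5.22. In the plot of all members by library, most genes above 30 normalized counts hold a similar level across the 6 libraries, and Gapdh departs from its usual level in 1 of them.

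**Figure D1:**
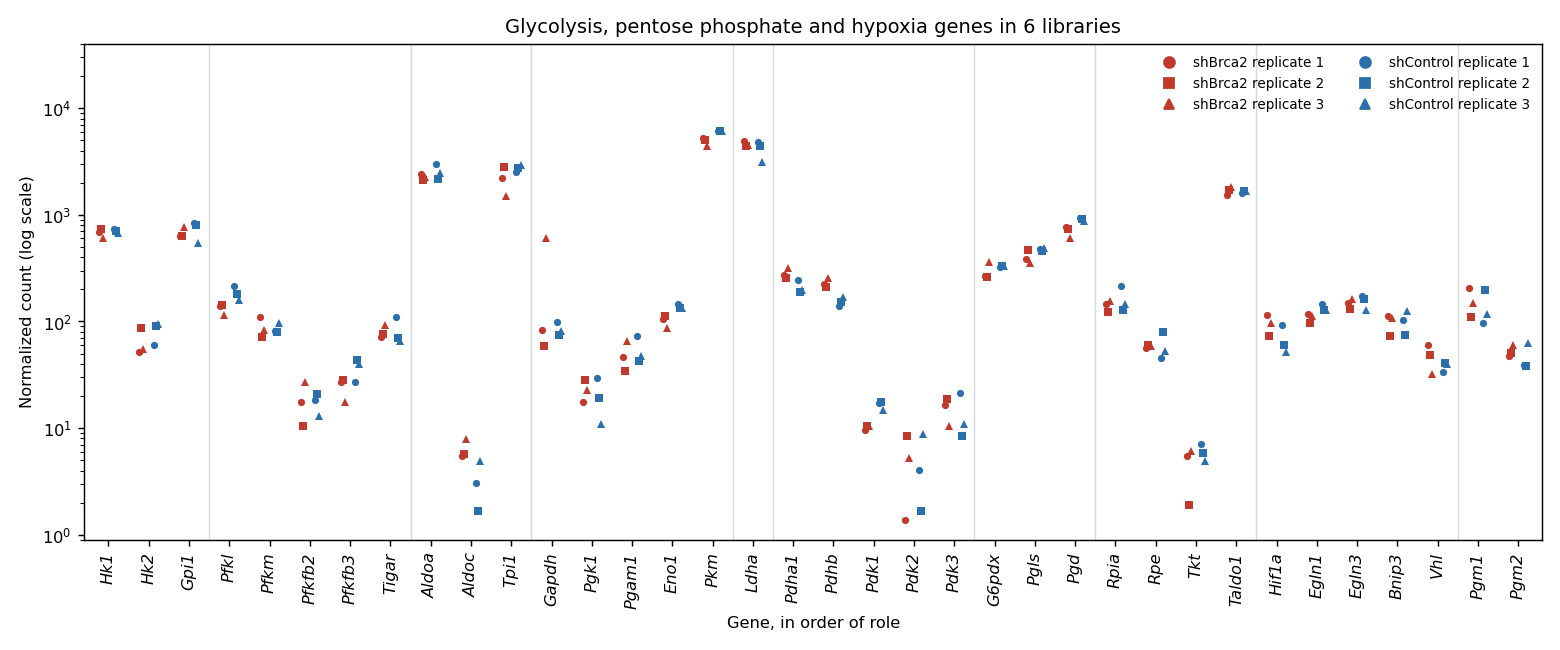
Normalized counts (log scale) of the 36 members, in order of role along the x axis, with 1 point per library (red shBrca2, blue shControl). Most members overlap between the groups, and Gapdh in shBrca2 replicate 3 sits at 603 against 58.6 to 99.0 in the other libraries.

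Gapdh, Pgk1, Pgam1 and Eno1, enzymes that are abundant in most growing cells, were low here, and all 4 have near-identical copies elsewhere in the genome. The last 300 bases of the transcript, from which 3′ end reads come, matched another place in the GRCm39 genome over at least 270 bases at 95% identity or more for 7 of the 36 members. Gapdh, the triose phosphate oxidizing enzyme, had 37 such copies, Pgam1 and Eno1 had 4 each and Pgk1 had 3. Egln1 had 2 copies, and Pdhb and Bnip3 had 1 each. Pkm, Ldha, Aldoa, Tpi1 and Taldo1 had no copy of that kind. Mean normalized counts of the 4 most copied genes were 167 for Gapdh, 21.4 for Pgk1, 51.6 for Pgam1 and 119 for Eno1. All were far below the 5509 of Pkm, which acts in the same chain of reactions. The Gapdh mean was raised by shBrca2 replicate 3, at 603 against 58.6 to 99.0 in the other libraries. Tkt and Aldoc had no near-whole copy and were lower still. The part of copies in these levels was not tested, and how reads with several matches were counted is not given in the sources used here.

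**Figure D2:**
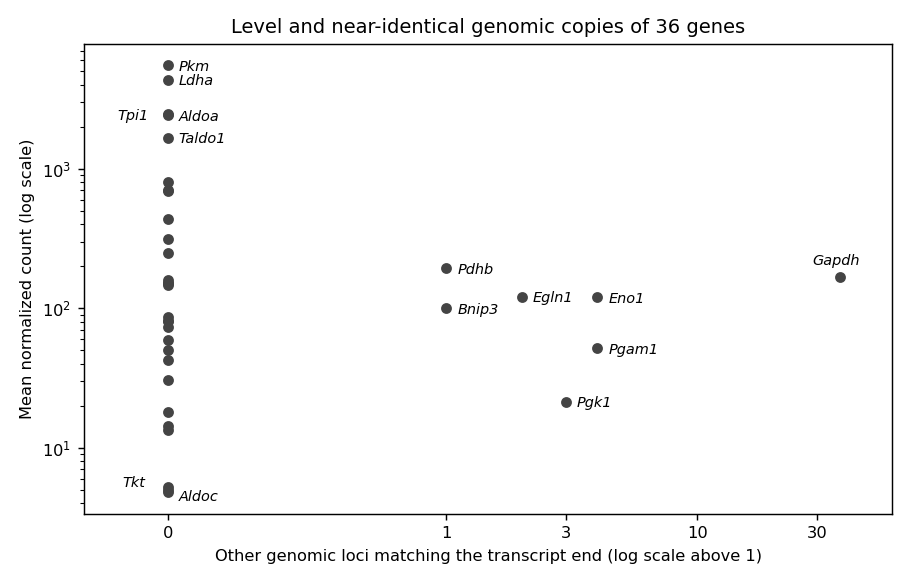
Mean normalized count (log scale) of each member against the number of near-whole copies of its last 300 transcript bases. Gapdh, with 37 copies, lies at 167, a mean raised by shBrca2 replicate 3, and the 5 most abundant members have 0 copies.

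Gapdh gave raw counts of 61, 62 and 693 in shBrca2 and of 98, 89 and 82 in shControl. The shBrca2 mean was raised by replicate 3 alone. In normalized counts, shBrca2 replicate 1 (83.1) lay within the shControl range of 74.6 to 99.0, and shBrca2 replicate 2 (58.6) lay below it. In shBrca2 replicate 3 Gapdh was 6.09 times the highest of the other 5 libraries. That was the largest such ratio in this library among 7796 genes with a mean normalized count over 20 (the next gene reached 1.89). The fitted log2 fold change was 1.55 ± 1.00 and turned to -0.27 without shBrca2 replicate 3. Gapdh is therefore reported as uncertain, and the totals over its branch and over all members are given with and without it.

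None of the 36 members passed the test. A call needed an adjusted p below 0.1, a log2 fold change beyond 0.5 in either direction and a mean normalized count above 5, which 127 of the 9997 genes tested by DESeq2 did (1.27%), 77 of them higher (0.77%) and 50 lower (0.5%) in shBrca2. Before adjustment, 6 members reached 0.05, of which Pdha1 and Pdhb were higher and Pfkl, Eno1, Pkm and Pgd lower. The same threshold was reached upwards by 4.55% and downwards by 4.11% of all genes tested, beside 5.56% and 11.1% of the 36 members. The quasi-likelihood test of edgeR also called 0 members, with 8 below 0.05 before adjustment and a smallest adjusted p of 0.114. The smallest adjusted p of a member in DESeq2 was 0.155, for Pdhb.

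In median size, the members' differences were close to those of the table at large, without matching for level. Log2 fold changes were above 0 for 15 members and below 0 for 21, with a median of -0.05 beside -0.00094 over all genes tested. The median absolute log2 fold change was 0.21 for the members and 0.23 for all genes. Members were more abundant, 19 of them having a mean normalized count over 100, while the median over all genes tested was 64.1. Normalized counts of the groups did not overlap for 3 members that were higher in shBrca2 (Aldoc, Pdha1 and Pdhb) and 6 that were lower (Pfkl, Eno1, Pkm, Pdk1, Pgd and Egln1), or 8.33% and 16.7% of members against 10.2% and 10.4% of all genes, and they overlapped for the remaining 27. A p above the threshold does not show equal levels, and the 95% intervals set the bounds. For 12 members, among them Hk1, Gpi1, Aldoa, Pkm, Ldha, G6pdx and Taldo1, the interval lay within 1.5-fold in either direction, and for 26 it lay within 2-fold.

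**Figure D3:**
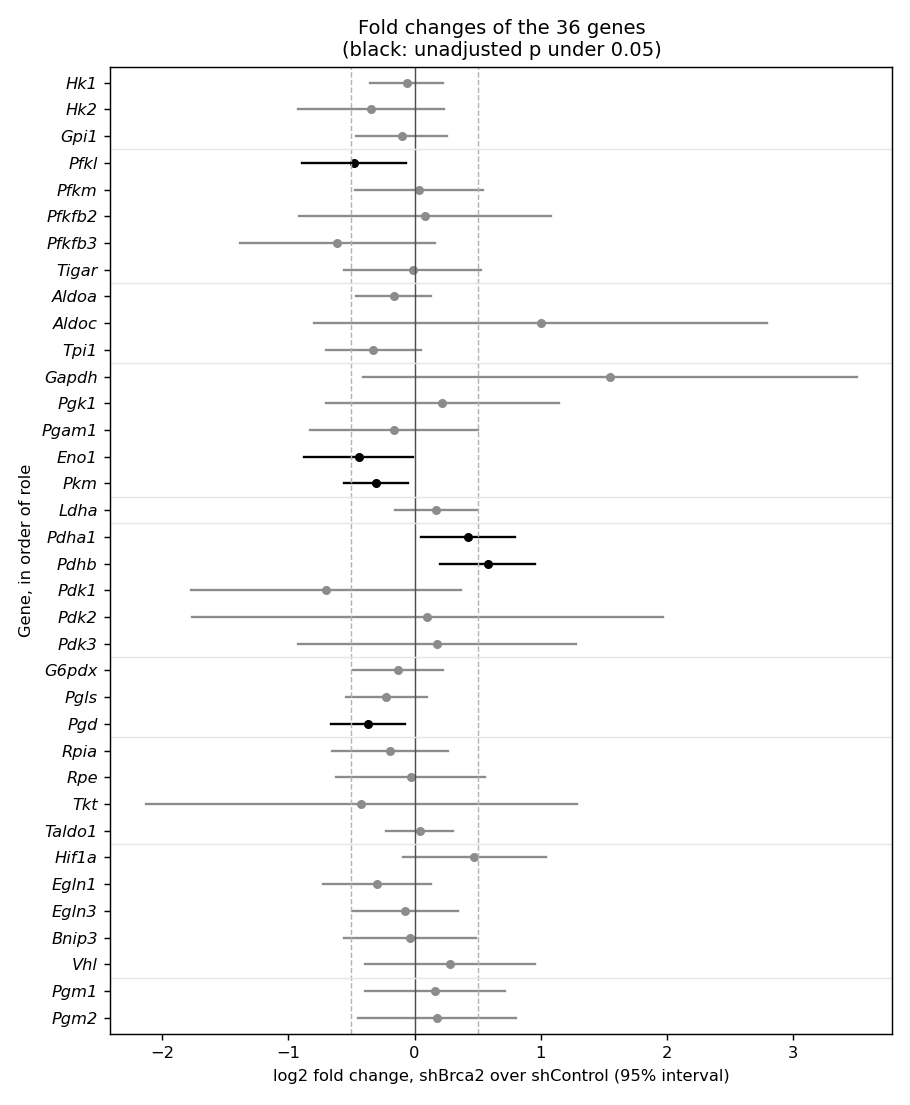
Log2 fold change of each member (x axis, shBrca2 over shControl) with its 95% interval, from DESeq2. No member was called, and the narrow intervals belong to the abundant genes such as Pkm and Taldo1 while those of Pdk2 and Tkt span more than 2-fold either way.

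Hexose phosphorylation was carried by Hk1, the broadly expressed hexokinase. Hk1 had normalized counts of 687, 730 and 610 in shBrca2 and of 731, 707 and 675 in shControl. The groups overlapped, and the log2 fold change was -0.06 ± 0.15. Hk2, the growth- and hypoxia-responsive hexokinase, had 51.8, 86.0 and 54.8 against 60.6, 89.7 and 94.9 normalized counts, overlapping, for -0.34 ± 0.29. Gpi1, the isomerase that makes fructose 6-phosphate, had 629, 633 and 775 against 837, 807 and 546, and its lowest value was that of shControl replicate 3. The log2 fold change of -0.10 ± 0.18 was -0.27 without that library.

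At the phosphofructokinase step, which commits the sugar to glycolysis, the liver-type subunit Pfkl had normalized counts of 140, 143 and 116 in shBrca2 and of 214, 183 and 159 in shControl. Every shBrca2 library lay below every shControl library, but the difference of -0.48 ± 0.21 on the log2 scale was not called (DESeq2 adjusted p = 0.437). The muscle-type subunit Pfkm had 110, 70.9 and 82.7 against 80.8, 78.8 and 95.9, overlapping, for 0.04 ± 0.26. The regulators of this step were rarer. Pfkfb3, which makes the activator fructose 2,6-bisphosphate, gave -0.61 ± 0.39, Pfkfb2, of the same family, 0.09 ± 0.51, and Tigar, a phosphatase that removes the activator, -0.02 ± 0.28, with overlapping groups in each case.

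Aldolase and triose phosphate isomerase were among the most abundant enzyme transcripts. Aldoa had normalized counts of 2422, 2143 and 2256 in shBrca2 and of 2987, 2179 and 2483 in shControl. The groups overlapped and the log2 fold change was -0.17 ± 0.15. Tpi1 had 2223, 2807 and 1516 against 2544, 2756 and 2903, for -0.33 ± 0.19, and shBrca2 replicate 3 was the lowest library. Without that library the log2 fold change was -0.12, and without shBrca2 replicate 2, the highest of its group, it was -0.55. Aldoc, the brain-type aldolase, had raw counts of 4, 6 and 9 against 3, 2 and 5, too few to place its log2 fold change of 1.00 ± 0.92 on either side of 0.

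In the ATP-yielding phase, Pkm and Eno1 were lower in every shBrca2 library and neither was called. Pkm (chr9:59656576-59679372, GRCm38.p6), the pyruvate kinase gene of most tissues, had normalized counts of 5286, 5045 and 4446 in shBrca2 and of 6170, 6055 and 6054 in shControl. The groups stood apart, the log2 fold change being -0.31 ± 0.13, a level 1.24-fold lower in shBrca2, with a DESeq2 adjusted p of 0.396. Counts at the 3′ end do not separate the M1 and M2 splice forms of this gene. Eno1, the enolase of most cells, had 106, 112 and 86.1 against 144, 134 and 133 and differed by -0.44 ± 0.22 (DESeq2 adjusted p = 0.56). Pgk1, which makes the first ATP of the phase, and Pgam1, which moves the phosphate for enolase, overlapped between the groups at 0.22 ± 0.47 and -0.16 ± 0.34.

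Ldha, which turns pyruvate into lactate, was the second most abundant member. It had normalized counts of 4920, 4400 and 4500 in shBrca2 and of 4791, 4375 and 3127 in shControl. The groups overlapped, and only shControl replicate 3, the library that stood apart on the first principal component, was low. The log2 fold change of 0.17 ± 0.16 was 0.005 without that library. Slc16a3, the exporter MCT4 that carries lactate out of glycolytic cells and which was no member but one of the surrounding genes checked, had 62.7, 64.3 and 67.9 against 108, 138 and 129 normalized counts. It fell 1.92-fold, a log2 fold change of -0.94 ± 0.24 (DESeq2 adjusted p = 0.0159), and its call was lost only without shControl replicate 2 among the fits that left out 1 library (adjusted p = 0.248).

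The promoters of Ldha and Slc16a3 are shown as enzyme and exporter of the same product, one with overlapping groups and one called lower, together with that of Pdhb, the member with the smallest adjusted p. Each is a window of 300 bases that ends 50 bases past a transcript start in RefSeq (GRCm38.p6), 5′ to 3′ on the gene's own strand. Only the first start listed for a gene was used. In these genes it lay inside the gene, whose 5′ end was at 46842274 for Ldha, 120948484 for Slc16a3 and 8173303 for Pdhb. Capitals mark ACGTG or GCGTG, the core letters of hypoxia response elements, on either strand (CACGT and CACGC when read in reverse). Where both strands of a CACGTG, the E-box of MYC-type factors, held ACGTG, each strand was counted.

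Ldha, chr7:46845554-46845853, plus strand: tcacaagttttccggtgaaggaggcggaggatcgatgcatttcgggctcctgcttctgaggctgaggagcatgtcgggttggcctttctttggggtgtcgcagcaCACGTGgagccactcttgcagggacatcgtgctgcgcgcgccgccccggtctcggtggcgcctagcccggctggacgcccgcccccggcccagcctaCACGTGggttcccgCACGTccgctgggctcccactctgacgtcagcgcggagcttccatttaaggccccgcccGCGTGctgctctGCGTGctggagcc
Slc16a3, chr11:120948817-120949116, plus strand: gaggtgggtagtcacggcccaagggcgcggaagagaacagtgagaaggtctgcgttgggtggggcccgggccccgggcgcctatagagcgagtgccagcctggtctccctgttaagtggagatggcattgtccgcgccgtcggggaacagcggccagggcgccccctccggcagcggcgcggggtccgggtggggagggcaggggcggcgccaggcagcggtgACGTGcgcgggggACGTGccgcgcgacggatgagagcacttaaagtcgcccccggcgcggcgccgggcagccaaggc
Pdhb, chr14:8172943-8173242, minus strand: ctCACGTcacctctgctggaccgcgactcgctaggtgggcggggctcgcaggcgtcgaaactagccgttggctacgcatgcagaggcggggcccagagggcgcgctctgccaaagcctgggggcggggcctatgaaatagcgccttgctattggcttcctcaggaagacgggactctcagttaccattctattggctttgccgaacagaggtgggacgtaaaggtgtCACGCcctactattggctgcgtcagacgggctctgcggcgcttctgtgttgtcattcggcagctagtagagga

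The Ldha window held 7 matches, the most of any member, including 2 copies of CACGTG, and the windows of Slc16a3 and Pdhb held 2 each. At least 1 match was found in 43.8% of 27025 RefSeq promoters of this length, in 65.8% of the 8075 that belonged to genes tested and in 28 of the 36 members (77.8%). The letters are common, and a match is not a site shown to be used.

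The pyruvate dehydrogenase genes lay on the other side of 0. Pdha1 and Pdhb encode the alpha and beta subunits of the first enzyme of the complex. Pdhb (chr14:8165991-8173303) had normalized counts of 223, 212 and 257 in shBrca2 and of 140, 153 and 169 in shControl. All shBrca2 libraries were above all shControl libraries, by 0.58 ± 0.19 on the log2 scale (DESeq2 adjusted p = 0.155), and leaving out any 1 library gave between 0.50 and 0.65. Pdha1 had 275, 256 and 318 against 246, 190 and 199, again without overlap, for 0.42 ± 0.19 (DESeq2 adjusted p = 0.45). Neither was called.

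The kinases that inactivate this enzyme were near the limit of detection. Pdk1, a HIF1 target, had raw counts of 7, 11 and 12 in shBrca2 and of 17, 21 and 15 in shControl. Its normalized counts did not overlap, and the log2 fold change was -0.70 ± 0.55. Pdk2 had raw counts of 1, 9 and 6 against 4, 2 and 9, and Pdk3 12, 20 and 12 against 21, 10 and 11. Their groups overlapped, at 0.10 ± 0.95 and 0.18 ± 0.56.

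In the oxidative branch of the pentose phosphate pathway all 3 genes had log2 fold changes below 0. Pgd (chr4:149149991-149166705), which makes the second NADPH and ribulose 5-phosphate, had normalized counts of 774, 734 and 606 in shBrca2 and of 931, 919 and 874 in shControl. The groups did not overlap, and the difference was -0.37 ± 0.15 with a DESeq2 adjusted p of 0.359. The last 300 bases of Pgd also held shorter matches to 160 other places, none longer than 176 bases, so some of its reads may not be unique to it. G6pdx, the rate-limiting entry enzyme, had 268, 259 and 364 against 322, 328 and 328, overlapping because of shBrca2 replicate 3, for -0.13 ± 0.18. Pgls, the lactonase between them, had 388, 470 and 356 against 477, 455 and 485, which also overlapped, for -0.22 ± 0.17.

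The non-oxidative branch was led by Taldo1, the transaldolase, with normalized counts of 1541, 1695 and 1822 in shBrca2 and of 1585, 1675 and 1660 in shControl. The groups overlapped and its interval was among the narrowest, the log2 fold change being 0.04 ± 0.13. Rpia and Rpe, which interconvert the pentose phosphates, gave -0.19 ± 0.23 and -0.03 ± 0.30. Tkt, the transketolase, had raw counts of 4, 2 and 7 against 7, 7 and 5, so no difference of a size seen in the other members was detectable at this depth.

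Among the hypoxia regulators on the list, Hif1a, the oxygen-regulated subunit of HIF1, had normalized counts of 114, 72.8 and 95.7 in shBrca2 and of 91.9, 59.5 and 51.4 in shControl. The groups overlapped at a log2 fold change of 0.48 ± 0.29. Egln1, the prolyl hydroxylase that marks HIF1 for destruction, had 117, 97.4 and 111 against 144, 127 and 128. It was lower in every shBrca2 library, with a log2 fold change of -0.30 ± 0.22, and was not called. Egln3, a hypoxia-induced hydroxylase of the same family, Bnip3, a mitophagy receptor, and Vhl, the ligase that binds hydroxylated HIF1, overlapped at -0.07 ± 0.21, -0.04 ± 0.27 and 0.28 ± 0.34. The phosphoglucomutase rows, which link glucose 6-phosphate to glycogen, also overlapped, at 0.17 ± 0.28 for Pgm1 and 0.18 ± 0.32 for Pgm2. The mouse symbols Pgm1 and Pgm2 have been exchanged between annotations, so which gene each row counted cannot be told apart here.

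Counts were also added up by branch, as shares of all counts in a library, which describes the branches without a test. The ATP-yielding genes took 0.259% ± 0.0076 (SD, n = 3) in shBrca2 against 0.309% ± 0.0032 in shControl with Gapdh, and 0.247% ± 0.020 against 0.305% ± 0.0034 without it. Aldolase with triose phosphate isomerase took 0.216% ± 0.028 and 0.256% ± 0.014, the highest shBrca2 library (0.239%) lying just under the lowest shControl library (0.240%). The phosphofructokinase step took 0.0167% ± 0.0010 and 0.0197% ± 0.0015, and the oxidative pentose phosphate branch 0.0681% ± 0.0031 and 0.0826% ± 0.00096. In each of these 4 of 10 branches the shBrca2 libraries lay below all shControl libraries. Among single genes tested, 10.4% were lower and 10.2% higher without overlap, and no background was computed for branch sums. The sums partly repeat single genes, since Pfkl, Eno1, Pkm and Pgd were each lower without overlap, while Aldoa and Tpi1 overlapped. Pkm alone took 0.255% of counts in shBrca2 replicate 1, where the ATP-yielding genes with Gapdh took 0.268%. In shControl replicate 1 these shares were 0.291% and 0.307%. The pyruvate dehydrogenase group lay above all shControl libraries, at 0.0264% ± 0.0026 against 0.0194% ± 0.0012. This group summed Pdha1 and Pdhb, which held most of its counts, with the Pdk kinases that inactivate the enzyme. The shares of hexose phosphorylation, lactate dehydrogenase, the non-oxidative branch, the hypoxia regulators and phosphoglucomutase overlapped between the groups.

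**Figure D4:**
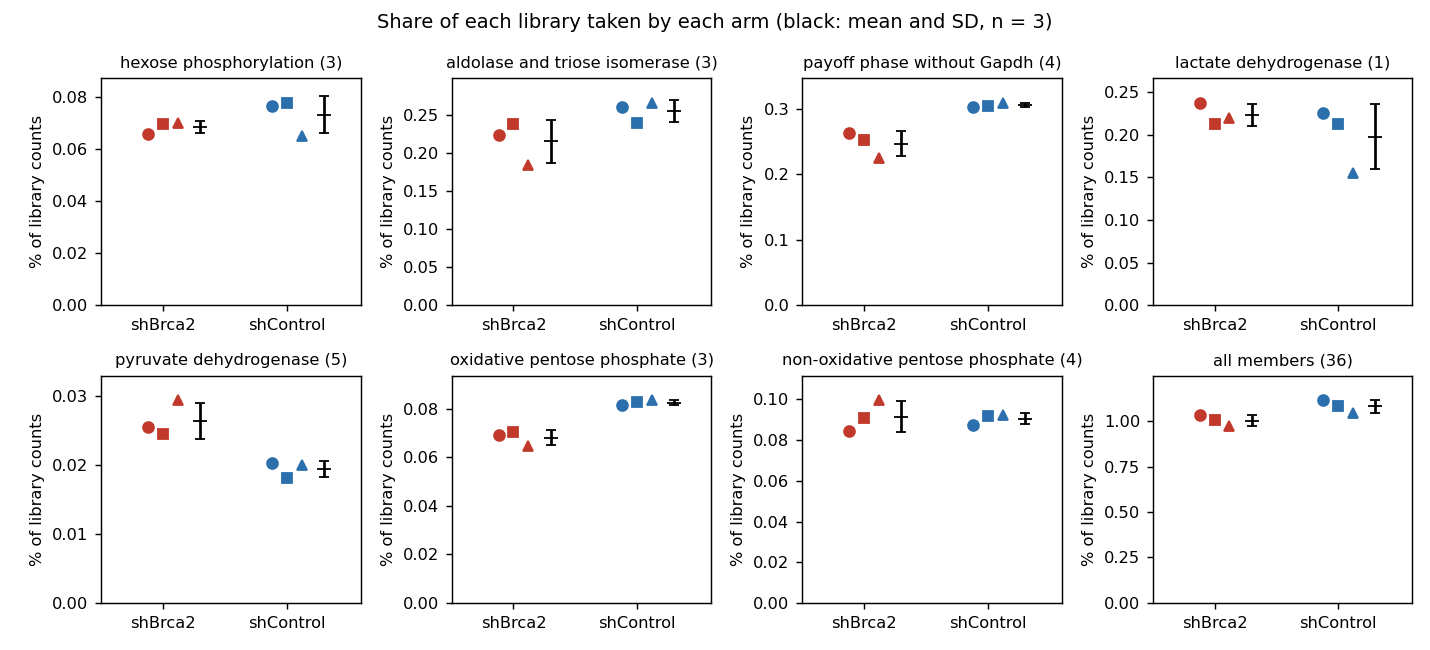
Share of each library's counts (%, axes from 0) taken by 7 branches and by all 36 members together, with 1 point per library and the mean ± SD of 3 libraries in black. The ATP-yielding (payoff, drawn without Gapdh) and oxidative pentose phosphate shares are lower and the pyruvate dehydrogenase share is higher in every shBrca2 library.

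All 36 members together took 1.03%, 1.00% and 0.973% of counts under the Brca2 hairpin and 1.11%, 1.08% and 1.05% under the control hairpin. The groups stood just apart, at 1.00% ± 0.030 against 1.08% ± 0.034, or 0.991% ± 0.043 against 1.08% ± 0.034 without Gapdh. Most of that gap was Pkm, without which the difference of -0.0783 percentage points became -0.0217.

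The shares of isoforms within the hexokinase and phosphofructokinase families overlapped between the groups. Hk2 made up 7.01%, 10.5% and 8.25% of the Hk1 and Hk2 counts in shBrca2 and 7.66%, 11.3% and 12.3% in shControl. Pfkm was 44.0%, 33.2% and 41.7% of the Pfkl and Pfkm counts against 27.4%, 30.1% and 37.6%, with an exact 95% binomial interval of 36.7% to 51.5% for the first library (counting error only). Aldoc never exceeded 0.346% of the Aldoa and Aldoc counts. Pdk1 was 34.2% ± 6.3 of the 3 Pdk genes in shBrca2 and 49.0% ± 12.7 in shControl, without overlap but on 20 to 42 counts a library. The difference of -14.8 percentage points was -7.50 without shControl replicate 2.

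Outside the 36 members, 7 lists of neighbouring genes (sugar and lactate transport, other isoforms and gluconeogenesis, pyruvate entry, other pentose phosphate genes, glycogen and hexose branches, hypoxia targets, and transcriptional regulators of glycolysis) named 138 genes, of which 96 were in the table and 94 had an adjusted p. Here 3 genes rose and 4 fell, beside 0.77% and 0.5% of all genes tested, with a median log2 fold change of 0.02, and these lists were drawn up with earlier results of the data known. The list of other isoforms and gluconeogenesis had 2 higher and 2 lower of 15, transport had 2 lower of 6, the glycogen and hexose branches had 1 higher of 22, and hypoxia targets had 1 lower of 34, Slc16a3 again. No gene was called among 6 of pyruvate entry, 5 of the other pentose phosphate genes or 9 regulators. The glucose importer Slc2a1 had 504, 475 and 615 against 648, 543 and 567 normalized counts, overlapping, for -0.14 ± 0.16, and Myc gave -0.18 ± 0.19.

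Of the other isoforms and gluconeogenic enzymes, Hkdc1 and Fbp2 rose. Hkdc1, a hexokinase domain protein, had normalized counts of 23.2, 23.6 and 14.8 in shBrca2 and of 4.04, 3.35 and 5.93 in shControl. The groups did not overlap, and the log2 fold change was 2.21 ± 0.64 (DESeq2 adjusted p = 0.0459). Even so, Hkdc1 was 2.18% to 3.04% of the Hk1, Hk2 and Hkdc1 counts in shBrca2, beside 0.419% to 0.764% in shControl. Fbp2, the muscle fructose bisphosphatase, which runs the phosphofructokinase step backwards, had 174, 211 and 288 against 94.0, 104 and 131 and rose by 1.04 ± 0.23 on the log2 scale, again without overlap (DESeq2 adjusted p = 0.00284). The pools with Hkdc1 and with Eno3 were formed after their values had been seen.

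Sord, sorbitol dehydrogenase, which makes fructose from sorbitol, was the remaining gene that rose. It had normalized counts of 240, 223 and 208 in shBrca2 and of 112, 132 and 111 in shControl, without overlap, a log2 fold change of 0.91 ± 0.20 (DESeq2 adjusted p = 0.00157). Bpgm, which makes 2,3-bisphosphoglycerate as a bypass of the Pgk1 step, fell from 623, 499 and 567 in shControl to 309, 312 and 388 in shBrca2, a log2 fold change of -0.74 ± 0.17 (DESeq2 adjusted p = 0.00445). Eno3, the muscle enolase, had 154, 157 and 119 against 218, 253 and 249 and fell, with a log2 fold change of -0.75 ± 0.20 (DESeq2 adjusted p = 0.0228). Eno3 had more counts than Eno1 in every library, being 58.1% to 59.2% of the Eno1 and Eno3 counts in shBrca2 and 60.2% to 65.4% in shControl, a pool in which Eno1 had 4 near-whole copies.

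The remaining call was lower. Slc2a6, a hexose transporter of intracellular membranes, had 9.53, 15.1 and 8.70 normalized counts in shBrca2 and 29.3, 31.9 and 37.6 in shControl, for -1.56 ± 0.46 (DESeq2 adjusted p = 0.0678). All shBrca2 libraries lay below all shControl libraries.

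How far these calls rested on single libraries differed. Bpgm and Sord were called in all 6 fits that left out 1 library. Fbp2 was lost without shBrca2 replicate 3 or shControl replicate 2 (DESeq2 adjusted p = 0.166 and 0.122). Eno3 was lost without shBrca2 replicate 3, shControl replicate 2 or shControl replicate 3 (0.263, 0.285 and 0.131). Slc2a6 was called in 1 of the 6 fits, and its adjusted p reached 0.511 without shBrca2 replicate 3. Hkdc1 was called in 1 of the 4 that gave it an adjusted p, with up to 0.359 without shControl replicate 2. Each of these 6 genes and Slc16a3 kept its direction in all of these fits.

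**Figure D5:**
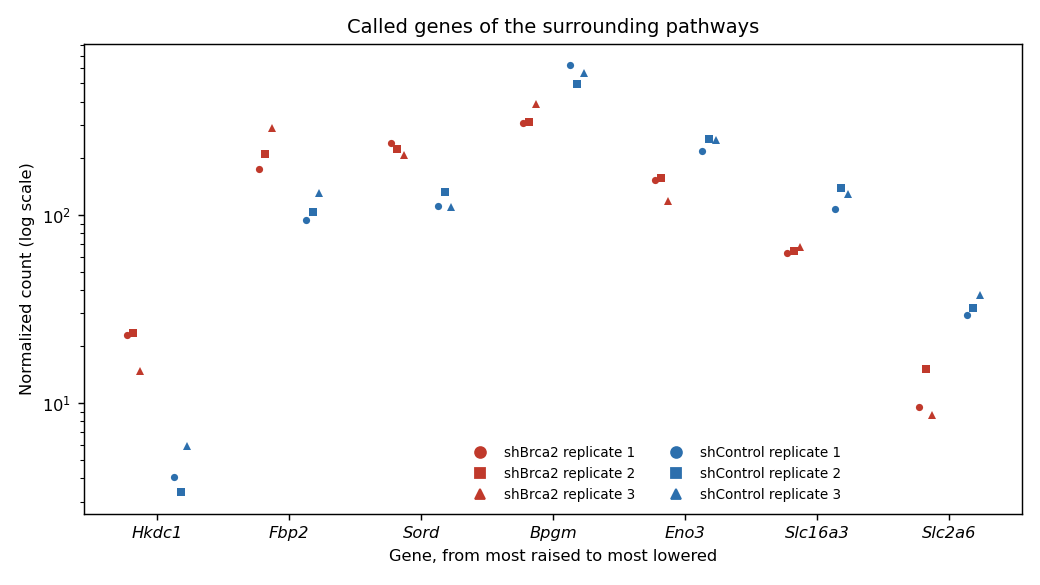
Normalized counts (log scale) of the 7 called genes outside the 36 members, with 1 point per library (red shBrca2, blue shControl). Hkdc1, Fbp2 and Sord lie higher and Bpgm, Eno3, Slc16a3 and Slc2a6 lower in all 3 shBrca2 libraries.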

How the data were processed

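RNA from 3 shBrca2 and 3 shControl libraries of sorted KPC cells was sequenced from the 3′ end by a variant of MARS-seq. The authors deposited raw counts per gene. The submitters' processing notes name bcl2fastq, cutadapt, STAR 2.4.2a, HTSeq, DESeq2 and the mm10 build; the gene annotation, the use of strand, and the treatment of multi-mapping reads and of molecular identifiers are not given in the sources used here, and exons of 25 members overlap a gene on the opposite strand and those of 6 a gene on the same strand. The members and gene lists were chosen with earlier results of these data known.

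Depth was 1519340 to 2452467 counts. The fit used all 10616 genes and 6 libraries: the likelihood ratio test of DESeq2 1.42.0 in R 4.3.3 on group alone, with median-of-ratios size factors and Benjamini-Hochberg adjustment over the 9997 genes kept by independent filtering. The test and the call thresholds were those of the study's methods (adjusted p below 0.1, log2 fold change beyond 0.5 either way, base mean above 5). Each raw count was divided by its library's size factor to give a normalized count; errors of log2 fold changes are standard errors. Within a group, pairs of libraries differed by more than counting noise (chi-square per degree of freedom 4.65 to 9.12), so none was counted as a duplicate. Pairs across the groups gave 5.66 to 12.6, a range that overlapped this one. The labels give no batch, and replicate numbers followed accession order. Copies were sought with blastn, as matches of at least 100 bases at 95% identity. Positions and promoters came from RefSeq GRCm38.p6, the build of the files.

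Values in every library are given for members that reached 0.05 before adjustment, whose groups did not overlap, that were among the 10 most abundant or that belonged to an isoform pool; a few others (Gapdh, Tkt, Hif1a and Slc2a1) were chosen after their values were seen. Neighbouring genes are named where called, or where they reached 0.05 with an absolute log2 fold change over 0.5; some genes are not reported here. Alternatives were edgeR 4.0.16, trimmed-mean size factors, filters on low counts, stricter thresholds and leaving out each library.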

Additional observations from a re-analysis of the deposited data

How the results depend on the processing

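Depth limited 7 members with a mean normalized count below 30, whose standard errors do not allow a statement on differences under 2-fold. No member was called under any of the 14 alternatives, with a smallest adjusted p between 0.114 and 0.684 across them. Over the whole table, 127 genes were called. Leaving out 1 library gave 47 to 140 (81 without shBrca2 replicate 1, 47 without shBrca2 replicate 3 and 55 without shControl replicate 2, in fits where fewer libraries estimate the spread) and every other setting 94 to 131. The median log2 fold change of the members lay between -0.136 (without shBrca2 replicate 3) and -0.00806 in fits that left out 1 library. Brca2 stayed negative between -1.70 and -1.46 in those fits, with the adjusted p from DESeq2 between 0.0684 and 0.371, and had no adjusted p with trimmed-mean factors or with the filter of at least 10 counts in at least 3 libraries. The difference in the share of library counts held by the members was between -0.0959 and -0.0619 percentage points without 1 library, and -0.0217 without Pkm. For the 21 members named by rule, 222 values with an adjusted p were computed under an alternative, of which 215 kept their direction and 7 changed sign, all in fits without 1 library. These spanned -0.123 to 0.0103 for Hk1, -0.275 to 0.00501 for Gpi1, -0.149 to 0.169 for Pfkm, -0.0809 to 0.658 for Pdk3 and -0.0177 to 0.0992 for Taldo1, and the cause was not tested. Over all 36 members, 16 changed sign when some library was left out, Gapdh spanning -0.27 to 2.02 and Pdk2 -0.49 to 0.87. Isoform share differences moved by less than 1 SD of the shControl libraries, which is wide for the Pdk genes. For Pdk1 that SD was 12.7 percentage points, against 6.3 in shBrca2. Without 1 library the differences ran from -19.1 to -7.50 percentage points for Pdk1 and from -1.79 to 8.04 for Pdk2. Of the 7 called neighbouring genes, Slc2a6 alone was lost at an adjusted p under 0.05, and Slc2a6 and Hkdc1 had no adjusted p in 2 and 3 of the 8 alternatives that kept all libraries. No paired analysis was possible because the labels number the libraries in no way that ties those of one group to those of the other.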

Other observations

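Among the neighbouring genes that were not called, 8 reached 0.05 before adjustment with an absolute log2 fold change over 0.5. Over all genes tested, 4.55% were higher and 4.11% lower at that p with no minimum on the fold, and genes selected in this way tend not to overlap between groups, which was so for all 8. Of these, 5 were lower in shBrca2. Adpgk, the ADP-dependent glucokinase, had normalized counts of 125, 121 and 65.3 in shBrca2 and of 161, 200 and 167 in shControl (log2 fold change -0.77 ± 0.25). G6pc3, the broadly expressed glucose 6-phosphatase, had 32.7, 59.6 and 52.2 against 67.7, 91.4 and 77.1 (-0.69 ± 0.30). The hypoxia-induced genes Ankrd37, Plod2, a collagen lysyl hydroxylase, and Ddit4, an inhibitor of mTORC1, gave -0.84 ± 0.37, -0.99 ± 0.37 and -0.51 ± 0.18. Kdm4c, a histone demethylase, gave 0.76 ± 0.36. Their DESeq2 adjusted p-values ran from 0.143 to 0.527. The hypoxia list of 34 genes, from which Ankrd37, Plod2, Ddit4 and Kdm4c came, had a median log2 fold change of -0.09. Its genes ranged from -1.26 to 0.83, so these few do not describe the list.

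Txnip and Arrdc4, a pair of arrestin-domain genes that are induced by glucose through MondoA and ChREBP and that limit glucose uptake, were both higher in shBrca2. Txnip had normalized counts of 253, 258 and 289 against 200.1, 159 and 194, a log2 fold change of 0.54 ± 0.19 (DESeq2 adjusted p = 0.188). Arrdc4 had raw counts of 4, 7 and 4 against 0, 2 and 1 and was too low to be given an adjusted p. Neither was called.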
